A study of Mus musculus with 15 samples.

Results

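The collagen genes of the mouse were followed in RNA-seq of bone marrow-derived macrophages (BMDMs), the marrow precursors that form osteoclasts. Every entry of the expression table whose symbol reads Col, a number, a and a second number was taken as a member, which gave 44 genes among 20089. The 27 members followed closely were chosen by their mean level, at least 0.1 FPKM over the 15 samples, as reached by 11743 genes in all, and 17 members lay below. FPKM, in which fragments are divided by exon length and by the mapped total, is a level per length, so levels of different collagens can be set side by side.

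The BMDMs came from wild-type mice and stayed in M-CSF, the growth factor of macrophages, in every group. Control cells received M-CSF alone, and the other cells also received receptor activator of NF-κB ligand (RANKL), the inducer of osteoclasts, or lipopolysaccharide (LPS), a bacterial activator of macrophages, for 4 h or 72 h. There were 3 samples in each of the 5 groups. The study's methods put BMDM donors for osteoclast culture at 4 to 8 weeks of age and give no separate age for these samples. The study set RANKL beside LPS in search of transcripts that answer to RANKL alone. The labels do not say whether samples came from separate animals, so p-values measure only the spread between these samples, which may be technical. The labels give no time for the control samples, so the stimulus and the time in culture cannot be told apart at 72 h.

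Collagens are triple-helical proteins of the extracellular matrix, built from 3 chains, which come from a single gene in some types and from several genes in others. The fibril-forming collagens give bone, skin and cartilage their tensile strength, and type I collagen is the main protein of the bone matrix, laid down by osteoblasts and degraded by osteoclasts. Other classes form the sheets of basement membranes, beaded filaments around cells, or molecules that decorate the surface of fibrils, and fibroblasts and marrow stromal cells are their best known producers. In a bulk culture, fewer cells of a type and less RNA per cell cannot be told apart.

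Depth was even, with 18306487 to 20330238 fragments on listed genes per sample (median 19351253). The markers of the labelled cell type were high throughout, since the 6 macrophage markers summed to 5824 to 17290 FPKM per sample. All 6 osteoclast markers passed the test below as higher after 72 h of RANKL, and all 3 LPS response markers did so at both times of LPS. A library that stood apart was LPS 72 h replicate 3. Over genes, it differed from the other samples of its group by 54.8 and 37.6 times what repeat sampling of one library would give, whereas those other samples differed from each other by 8.67 times and pairs within the remaining groups by 7.66 to 23.0 times. The LPS 72 h calls below are therefore also given without it.

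Type I collagen led the family, with its smallest shares of the summed FPKM in LPS 72 h replicates 1 and 2 (46.3% and 41.7%). *Col1a1* and *Col1a2*, which encode both chains of type I collagen, had means of 143 and 105 FPKM over the samples and together made up 41.7% to 69.0% of the summed FPKM of the 44 genes. *Col3a1*, whose product is laid into the same fibrils in soft tissues, followed at 27.4 FPKM, before *Col5a2* at 22.4 FPKM, *Col6a1* at 17.8 FPKM, *Col5a1* at 13.8 FPKM and *Col6a2* at 10.2 FPKM. This order of overall means was not that of every group. In control *Col6a1* (14.0 FPKM) stood beside *Col3a1* (13.6 FPKM) and *Col5a2* (12.2 FPKM). In LPS 72 h *Col5a2* (25.6 FPKM) had a higher mean than *Col3a1* (9.57 FPKM) and *Col6a1* (4.00 FPKM). In LPS 72 h replicates 1 and 2 *Col5a2* (17.4 and 18.3 FPKM) was level with *Col1a2* (17.6 and 19.1 FPKM). These 7 genes averaged 10 FPKM or more, and 17 averaged 1 FPKM or more. The means of neighbours in this order differed by less than the samples of one group could, as RANKL 72 h alone spanned 158 to 692 FPKM for *Col1a1* and 117 to 532 FPKM for *Col1a2*.

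All 27 genes above the limit were detected in all 15 samples and had a mean of at least 0.1 FPKM in control as well, so none entered through a stimulated group alone. The members just inside the limit were *Col19a1* at 0.115 FPKM and *Col23a1* at 0.123 FPKM, and those just outside were *Col6a4* at 0.0982 FPKM and *Col28a1* at 0.0661 FPKM. No test was attached to this limit. Counting error was small for the high members, with 6428 to 14773 fragments per control sample for *Col1a1*, and large for the low ones, with 66 fragments for *Col4a5* over the 3 control samples.

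**Figure D1:**
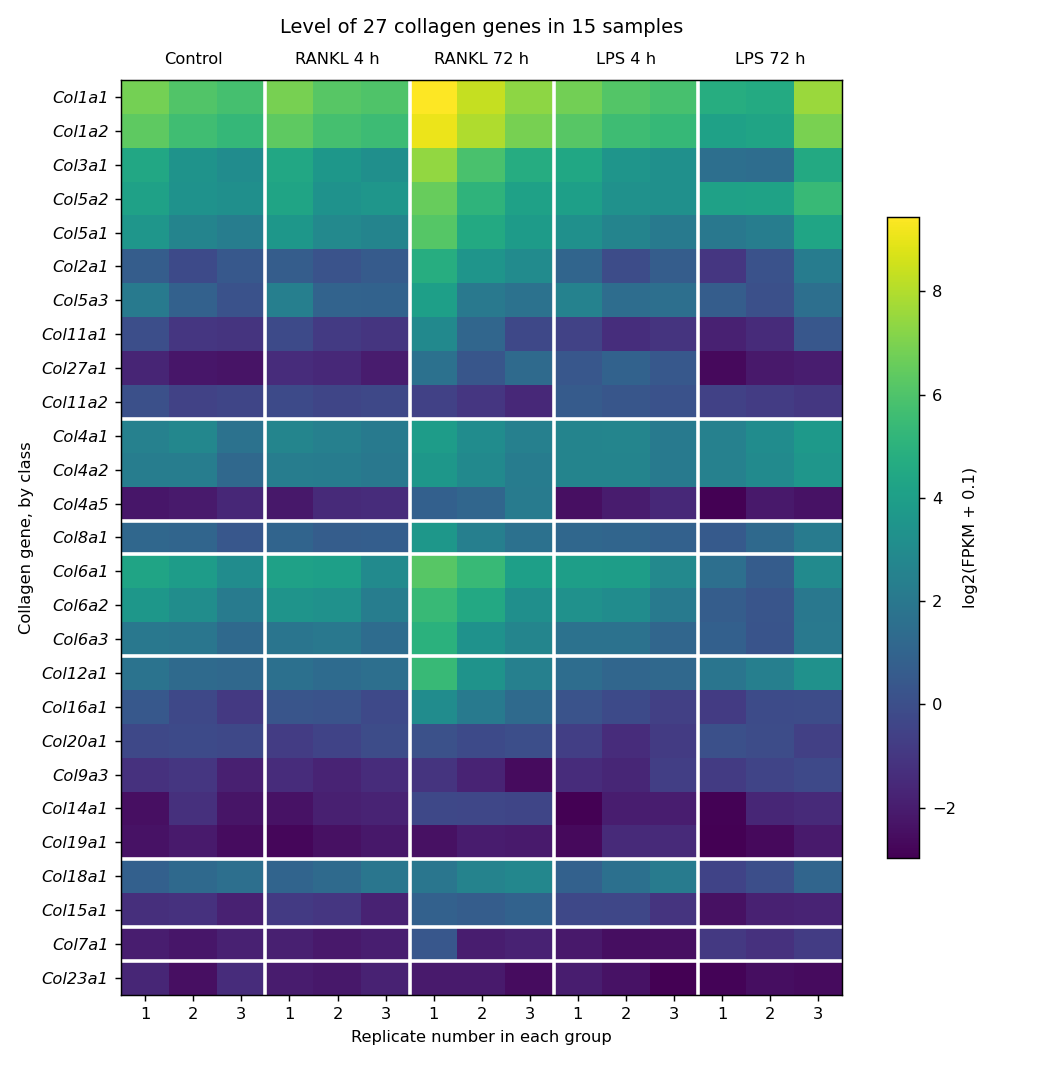
Level of the 27 collagen genes above the limit of 0.1 FPKM (rows, ordered by class from fibril-forming at the top to transmembrane at the bottom) in the 15 samples (columns, by group and replicate number), as log2(FPKM + 0.1). *Col1a1* and *Col1a2* are brightest, RANKL 72 h replicate 1 is the brightest column for most genes, and LPS 72 h replicate 3 stands above the other samples of its group.

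RANKL for 72 h gave the highest collagen level on average. The summed FPKM of the family was 312, 196 and 148 in control replicates 1, 2 and 3. In RANKL 72 h it was 1866, 832 and 415, above every control sample. It was 314, 212 and 179 in RANKL 4 h, 293, 200 and 161 in LPS 4 h, and 96.7, 103 and 463 in LPS 72 h. Both 4 h groups thus stayed close to control replicate by replicate, and LPS 72 h lay below all control samples in replicates 1 and 2 and above them in replicate 3.

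In limma on log2(FPKM + 0.1), where a gene was called at a fold change above 1.5 or below 0.66 with a Benjamini-Hochberg adjusted p under 0.05, 16 of the 27 collagens were higher with RANKL 72 h than with M-CSF alone and 1 was lower. Of all tested genes, 24.2% were called, 16.6% as higher and 7.54% as lower. The median log2 fold change was 1.68 over the collagens and 0.16 over all tested genes. Fold changes on this scale understate those of genes near the pseudocount. The 3 samples of RANKL 72 h lay above all 3 control samples for 15 collagens and below them for 1, against 33.1% and 16.1% of all genes. The count of calls was 10 without control replicate 2, control replicate 3 or RANKL 72 h replicate 1, and 11 without RANKL 72 h replicate 2. Of the 17 calls, 14 were kept and 1 was gained without control replicate 1, and 15 were kept and 4 gained without RANKL 72 h replicate 3. After centring each sample on its median gene the count was 11.

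Among the fibril-forming collagens, 8 of 10 tested genes were higher and 1 was lower. *Col1a1* had 116, 67.5 and 54.2 FPKM in control replicates 1, 2 and 3 and 692, 322 and 158 FPKM in RANKL 72 h. The groups did not overlap, and its log2 fold change was 2.12 ± 0.68 (SE; limma adjusted p = 0.0294). *Col1a2* rose alike, by 2.20 ± 0.65 (adjusted p = 0.0208), from 39.5 to 81.4 FPKM in control to 117 to 532 FPKM. The ratio of *Col1a1* to *Col1a2* stayed between 1.26 and 1.55 in all 15 samples, although the summed level of the family spanned 19.3-fold. *Col3a1* had 22.0, 10.6 and 8.22 FPKM in control and 173, 57.7 and 25.9 FPKM in RANKL 72 h, where each sample exceeded the highest control, and rose by 2.35 ± 0.78 (adjusted p = 0.0358). The calls for *Col1a1*, *Col1a2* and *Col3a1* were each lost without control replicate 2, control replicate 3, RANKL 72 h replicate 1 or RANKL 72 h replicate 2, and those for *Col1a1* and *Col3a1* also after centring. That for *Col3a1* was lost with no filter on low values as well.

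Several minor fibrillar chains rose as well. *Col5a1* and *Col5a2*, chains of the type V collagen that nucleates type I fibrils, rose by 2.05 ± 0.63 and 1.70 ± 0.51 (adjusted p = 0.0252 and 0.023), and *Col11a1*, a chain of the related type XI collagen of cartilage, by 1.96 ± 0.70 (adjusted p = 0.0475). *Col5a1* had 11.5, 6.14 and 4.75 FPKM in control and 72.7, 23.7 and 14.2 FPKM in RANKL 72 h, which did not overlap, while *Col5a2* at 94.4, 34.5 and 17.3 FPKM reached down into the 9.03 to 17.6 FPKM of control. Both calls were lost without control replicate 2, control replicate 3 or RANKL 72 h replicate 1, and after centring. *Col11a1* was the least firm of these calls: its values of 7.39, 2.05 and 0.718 FPKM overlapped the 0.365 to 0.892 FPKM of control, and the call was lost under 14 of 20 alternatives. *Col5a3*, the third type V chain, had a log2 fold change of 1.56 ± 0.64 and did not pass (adjusted p = 0.078), but was called with replicate number blocked. *Col2a1*, the main collagen of cartilage, had 1.5, 0.767 and 1.26 FPKM in control and 26.6, 11.3 and 7.93 FPKM in RANKL 72 h. All 3 stimulated samples stood far above control, and its rise of 3.45 ± 0.65 (adjusted p = 0.00164) was the largest of the family on this scale. By the ratio of group means, *Col4a5* (16.9-fold) and *Col27a1* (15.2-fold) exceeded *Col2a1* (13.0-fold), as they also did at a pseudocount of 0.01 and by voom on recovered fragments. The 4 chondrocyte markers summed to 0.400 to 0.775 FPKM in control and to 0.240 to 0.554 FPKM in RANKL 72 h, but they did not go one way. *Comp* and *Matn1*, which make up most of the sum, had lower means and did not pass (adjusted p = 0.186 and 0.129), whereas *Sox9*, below the limit for testing, had 0.0449, 0.0339 and 0.0603 FPKM in control and 0.234, 0.165 and 0.0956 FPKM in RANKL 72 h, with no overlap.

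*Col27a1*, a fibrillar collagen of developing cartilage, rose as firmly at a much lower level. It had 0.213, 0.117 and 0.0990 FPKM in control and 3.02, 1.16 and 2.37 FPKM in RANKL 72 h, from 87 fragments over the 3 control samples and 1255 over the 3 stimulated ones. The groups were far apart, and the log2 fold change was 3.16 ± 0.34 (adjusted p = 2.85e-05), the lowest adjusted p of the family. *Col11a2*, the second type XI chain, was the only collagen called lower. It had 0.940, 0.601 and 0.66 FPKM in control and 0.563, 0.404 and 0.244 FPKM in RANKL 72 h, so that the groups lay close but did not overlap, and it fell by 0.76 (SE 0.25; adjusted p = 0.0372). The fall was lost under 11 of 19 alternatives.

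Of the basement membrane collagens, 1 of 3 tested genes was called. *Col4a5*, a chain of the network in kidney, eye and muscle, had 0.114, 0.136 and 0.236 FPKM in control and 1.66, 2.11 and 4.42 FPKM in RANKL 72 h, or 66 against 1082 fragments. Every stimulated sample lay well above control, with a log2 fold change of 3.34 ± 0.38 (adjusted p = 4.74e-05). *Col4a6*, which starts 1309 bases away on the opposite strand of chromosome X, stayed below the limit with a mean of 0.0372 FPKM. Its fragments numbered 0, 1 and 6 in control and 14, 6 and 42 in RANKL 72 h, so that 62 of its 76 fragments came from the latter group, and within it replicate 3 held most, as for *Col4a5*. *Col4a1* and *Col4a2*, the chains of the common network of basement membranes, changed by 0.82 ± 0.38 and 0.97 ± 0.35 on the log2 scale and did not pass (adjusted p = 0.112 and 0.0518), although *Col4a2* was called with replicate number blocked and by voom on recovered fragments. Their starts lie 21 bases apart on opposite strands of chromosome 8, and their ratio was between 0.947 and 1.43 in all samples.

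*Col8a1*, the short-chain collagen of vessel walls and the cornea, rose by 1.66 ± 0.45 (adjusted p = 0.013), from 1.20 to 2.18 FPKM in control to 3.01 to 11.9 FPKM, a call lost without RANKL 72 h replicate 1. The beaded-filament collagens *Col6a1*, *Col6a2* and *Col6a3*, chains of the type VI microfibrils around cells, did not all pass. *Col6a3* had 3.95, 3.66 and 2.28 FPKM in control and 31.0, 10.3 and 6.24 FPKM in RANKL 72 h. These groups did not overlap, and it rose by 1.94 ± 0.51 (adjusted p = 0.0118), while *Col6a1* and *Col6a2* changed by 1.5 ± 0.61 and 1.41 ± 0.57 without passing (adjusted p = 0.0778 and 0.0762). *Col6a1* had 19.3, 14.6 and 8.12 FPKM in control and 74.8, 42.2 and 16.5 FPKM in RANKL 72 h, whose lowest sample lay within the control range. *Col6a2* was called with replicate number blocked.

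Among the collagens associated with the surface of fibrils, 3 of 6 tested genes were higher. *Col12a1*, a collagen of tendon and ligament, had 3.28, 2.40 and 2.20 FPKM in control and 41.9, 10.6 and 5.21 FPKM in RANKL 72 h. The groups were apart, though replicate 1 was 8.03 times replicate 3, and the rise was 2.31 ± 0.55 (adjusted p = 0.00637). *Col16a1* rose by 2.42 ± 0.43 (adjusted p = 0.00105), from 0.430 to 1.26 FPKM in control to 2.36 to 8.25 FPKM, and *Col14a1*, a regulator of fibril diameter, by 1.68 ± 0.42 (adjusted p = 0.00849). *Col14a1* was even in the stimulated samples, at 0.731, 0.690 and 0.680 FPKM, and uneven in control, at 0.0791, 0.319 and 0.106 FPKM. *Col9a3*, *Col19a1* and *Col20a1* did not pass. They changed by -0.44 ± 0.37, 0.16 ± 0.34 and 0.26 ± 0.25 on the log2 scale (adjusted p = 0.393, 0.752 and 0.467).

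Both multiplexins, collagens of basement membranes whose ends can be cut off as antiangiogenic fragments, were higher. *Col15a1* had 0.313, 0.342 and 0.177 FPKM in control and 1.75, 1.5 and 1.78 FPKM in RANKL 72 h. Its stimulated samples were the most alike of any collagen called apart from *Col14a1*, and its log2 fold change was 2.26 ± 0.31 (adjusted p = 2e-04). *Col18a1*, the source of endostatin, had 1.70, 2.31 and 2.85 FPKM in control and 3.68, 5.89 and 6.80 FPKM in RANKL 72 h, a rise of 1.20 ± 0.41 (adjusted p = 0.0416) between groups that did not overlap. That call was lost without control replicate 1 or 2, without RANKL 72 h replicate 2 or 3, after centring, and with no filter on low values. The anchoring-fibril collagen *Col7a1* (log2 fold change 0.90 ± 0.46, adjusted p = 0.154) and the transmembrane collagen *Col23a1* (-0.41 ± 0.33, adjusted p = 0.353) did not pass. *Col7a1* had 1.21 FPKM in RANKL 72 h replicate 1 but 0.158 and 0.193 FPKM in replicates 2 and 3, beside 0.111 to 0.183 FPKM in control. Of the 17 calls, those for *Col4a5*, *Col15a1* and *Col27a1* were kept under all 19 alternatives in which they were tested.

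**Figure D2:**
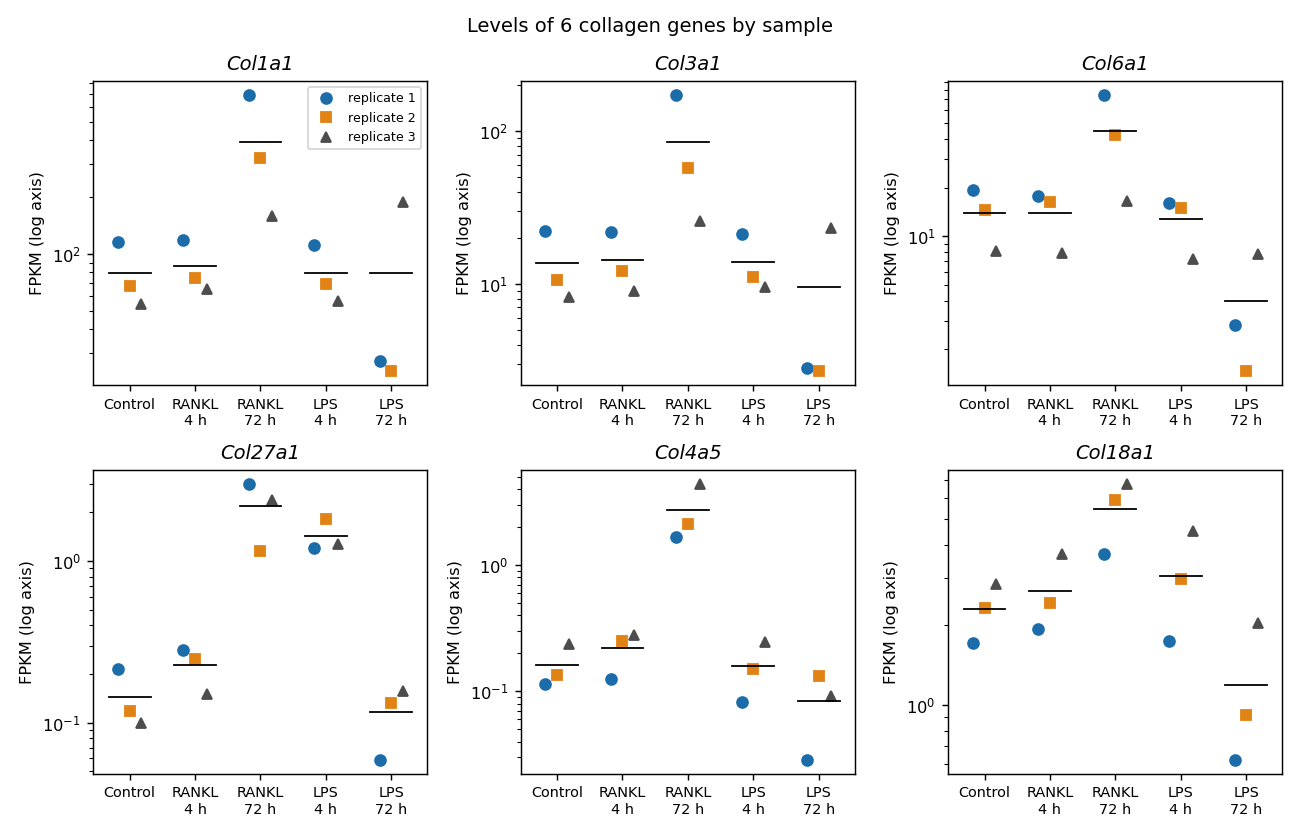
FPKM of 6 collagen genes in each sample (log axis; circles, squares and triangles are replicates 1, 2 and 3, and bars are group means, n = 3). *Col1a1*, *Col3a1* and *Col6a1* are highest in replicate 1 except in LPS 72 h, *Col4a5* and *Col18a1* are highest in replicate 3 of RANKL 72 h, and *Col27a1* is raised in RANKL 72 h and LPS 4 h.

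After 4 h of RANKL no collagen was called, where 0.119% of all tested genes were. None passed at an unadjusted p under 0.05 with the same fold limits either, beside 2.56% of all genes, or by voom on recovered fragments. Log2 fold changes ranged from -0.18 for *Col20a1* to 0.43 for *Col27a1*. Each replicate resembled its control counterpart, as *Col1a1* had 118.5, 74.3 and 65.5 FPKM beside 116, 67.5 and 54.2 FPKM in control. Set directly against RANKL 4 h, RANKL 72 h had 15 collagens higher and 1 lower, with 16.4% and 6.83% of all genes. These were the calls made against control except *Col18a1* (log2 fold change 1.01 ± 0.41, adjusted p = 0.0827), which was called there with replicate number blocked. Without RANKL 72 h replicate 1 or 2, or RANKL 4 h replicate 2 or 3, the count was 9.

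LPS for 4 h moved few collagens in a comparison that moved many genes. There were 3 higher and 1 lower, whereas 8.43% of all tested genes were higher and 39.7% lower. The median log2 fold change was 0.01 over the collagens and -0.52 over all genes, and after centring each sample on its median gene the collagens had a median of 0.58. After centring 5 were higher and 0 lower, with *Col4a2* and *Col19a1* gained and *Col20a1* lost. The median over all genes was then 0.04, so the shares above do not apply to these 5. The share of all genes called after centring was not counted. *Col27a1* led again, with 1.21, 1.82 and 1.27 FPKM against 0.213, 0.117 and 0.0990 FPKM in control. The 3 LPS samples were close to each other and far from control, and the log2 fold change was 2.66 ± 0.34 (adjusted p = 2.21e-05). It was back at 0.0587, 0.132 and 0.157 FPKM in LPS 72 h, within or below the control range.

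*Col15a1* rose by 0.88 ± 0.31 (adjusted p = 0.0269) and *Col11a2* by 0.65 ± 0.25 (adjusted p = 0.0416) in LPS 4 h, and *Col20a1*, a fibril-associated collagen, fell by 0.71 (SE 0.25; adjusted p = 0.0274). All 3 had groups that did not overlap, such as 0.729, 0.706 and 0.370 FPKM for *Col15a1* beside 0.177 to 0.342 FPKM in control. These calls were less firm than that of *Col27a1*, since the count fell to 1, *Col27a1*, without control replicate 3, without LPS 4 h replicate 2 or at a pseudocount of 1. Leaving out control replicate 1 or 2 or LPS 4 h replicate 1 also ended 1 or 2 of them. The type I genes did not pass, at 0.01 ± 0.68 for *Col1a1* and -0.06 ± 0.65 for *Col1a2* (adjusted p = 0.989 and 0.949).

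LPS for 72 h gave 1 collagen higher and 2 lower, where 13% and 14.4% of all tested genes were called. *Col6a1* had 2.82, 1.47 and 7.72 FPKM, below the 8.12 FPKM of the lowest control sample, and fell by 2.01 (SE 0.61; adjusted p = 0.0206). *Col6a2*, with 1.53, 1.11 and 3.87 FPKM, fell by 1.98 (SE 0.57; adjusted p = 0.0161). *Col6a3*, the third type VI chain, had a log2 fold change of -0.68 ± 0.51 and did not pass (adjusted p = 0.318). Its values of 1.66 and 1.10 FPKM in replicates 1 and 2 lay below the 2.28 to 3.95 FPKM of control. Replicate 3, at 4.03 FPKM, lay above that range. Without LPS 72 h replicate 3, *Col6a3* was called lower at an unadjusted p under 0.05. *Col4a2* had 5.41, 7.80 and 11.5 FPKM, above the 2.25 to 4.84 FPKM of control, and rose by 1.06 ± 0.35 (adjusted p = 0.0324). *Col18a1* had a log2 fold change of -1.01 ± 0.41 and did not pass (adjusted p = 0.0727). At an unadjusted p under 0.05 there were 3 collagens higher and 4 lower, beside 14.9% and 16.1% of all genes, and *Col7a1*, *Col9a3*, *Col18a1* and *Col23a1* were the ones added. Without LPS 72 h replicate 3 that rule gave none higher and 8 lower, beside 19.6% and 17.1% of all genes.

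The type I genes in LPS 72 h differed between libraries. *Col1a1* had 27.2, 24.0 and 188 FPKM, so that 2 samples lay below every control and the third above every control, and its log2 fold change of -0.60 ± 0.68 did not pass (adjusted p = 0.518). Without LPS 72 h replicate 3, 6 collagens were lower and none higher, where 15.7% and 18% of all genes were, with *Col1a1*, *Col1a2*, *Col3a1* and *Col18a1* gained and *Col4a2* lost. Without LPS 72 h replicate 1 or without control replicate 1 only the rise of *Col4a2* was left, and without LPS 72 h replicate 2 none. The call for *Col6a1* was also lost without control replicate 2, where *Col23a1* was gained, and that for *Col4a2* without control replicate 3. In LPS 72 h replicate 3 the 12 stromal cell or fibroblast markers summed to 120 FPKM against 47.2 and 61.2 FPKM in replicates 1 and 2, the macrophage markers to 17290 FPKM against 5919 and 7700 FPKM, and the LPS response markers to 77.9 FPKM against 114 and 201 FPKM. Their part in the difference was not tested.

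**Figure D3:**
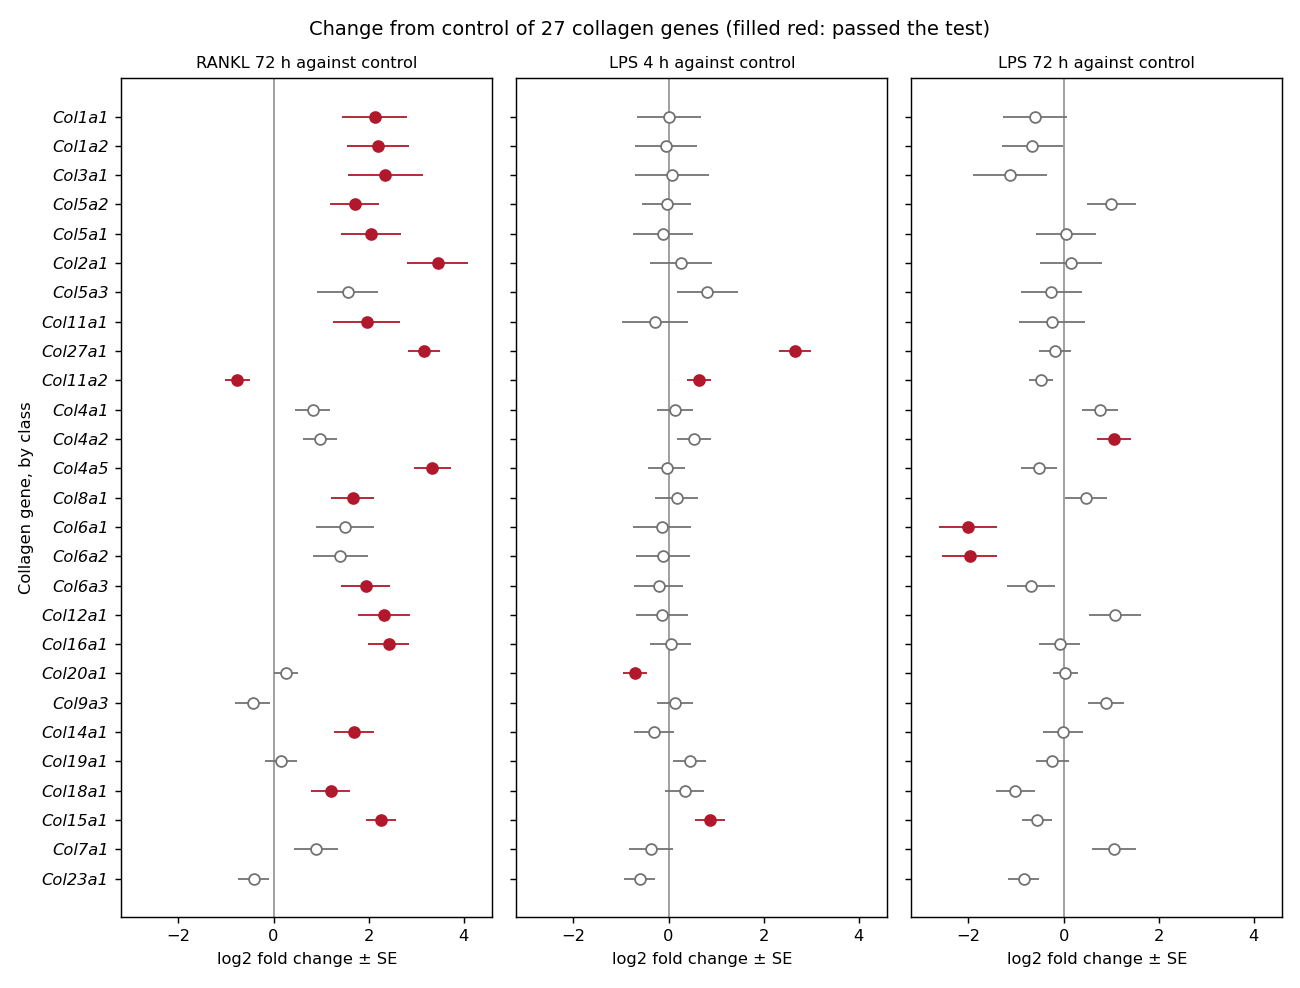
Log2 fold change from control on the log2(FPKM + 0.1) scale, with its standard error, of the 27 collagen genes in RANKL 72 h, LPS 4 h and LPS 72 h (3 samples against 3 in each, limma fit over all samples). Filled red points passed the test, 17 in RANKL 72 h, 4 in LPS 4 h and 3 in LPS 72 h.

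RANKL 72 h and LPS 72 h, which share the time in culture, were also compared directly. There were 17 collagens higher in RANKL 72 h and 1 lower, where 23.3% and 12.8% of all genes were called. *Col4a5* was 3.86 ± 0.38 higher on the log2 scale (adjusted p = 3.77e-06), *Col6a1* 3.51 ± 0.61 (adjusted p = 0.000403), *Col3a1* 3.48 ± 0.78 (adjusted p = 0.00263), *Col6a2* 3.38 ± 0.57 (adjusted p = 0.000319) and *Col27a1* 3.34 ± 0.34 (adjusted p = 4.77e-06). The lower one was *Col9a3*, a chain of type IX collagen, with 0.362, 0.197 and 0.0668 FPKM in RANKL 72 h and 0.475, 0.655 and 0.743 FPKM in LPS 72 h. These values did not overlap, and the difference was -1.33 ± 0.37 (adjusted p = 0.0102). *Col4a1*, *Col4a2* and *Col5a2*, with differences of 0.06 ± 0.38, -0.09 ± 0.35 and 0.70 ± 0.51, did not pass (adjusted p = 0.907, 0.863 and 0.284). All 18 calls were kept without LPS 72 h replicate 3, and at least 14 of them without any other library. *Col5a1*, *Col5a3*, *Col8a1* and *Col11a1* were lost without LPS 72 h replicate 1, LPS 72 h replicate 2 or RANKL 72 h replicate 1, and *Col8a1* also without RANKL 72 h replicate 2.

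The collagens varied between replicates more than other genes did, and along the replicate number. Because the choice of the family named this variation, it is described here without a test. The log2 range between the 3 samples of a group had a median over the collagens of 0.96 in control, 0.62 in RANKL 4 h, 1.76 in RANKL 72 h, 0.87 in LPS 4 h and 1.41 in LPS 72 h (0.50 between its replicates 1 and 2). Over all tested genes the medians were 0.39, 0.38, 0.38, 0.41 and 0.51 (0.17 between replicates 1 and 2 of LPS 72 h). Replicate 1 held the highest value for 16 of the 27 collagens in control, 19 in RANKL 4 h, 22 in RANKL 72 h and 20 in LPS 4 h, compared with 30.6%, 37.1%, 42.1% and 38.6% of all tested genes. In LPS 72 h it was replicate 3 for 23 of the 27, compared with 34.4%.

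The same genes carried this pattern from group to group. There were 14 collagens highest in replicate 1 in every group but LPS 72 h, as were 8.41% of all genes, and 13 of them were highest in replicate 3 in LPS 72 h, as were 4.25% of all genes. The 13 were *Col1a1*, *Col1a2*, *Col2a1*, *Col3a1*, *Col5a1*, *Col5a2*, *Col5a3*, *Col6a1*, *Col6a2*, *Col8a1*, *Col11a1*, *Col12a1* and *Col16a1*, of which 8 are fibril-forming. *Col18a1* and *Col4a5* ran the other way: both were highest in replicate 3 in every group but LPS 72 h, as were 3.24% of all genes, and *Col18a1* in LPS 72 h too. In RANKL 72 h, *Col15a1*, *Col18a1* and *Col4a5* were the members highest in replicate 3. *Col27a1* left the common course in LPS 4 h alone, where it was highest in replicate 2. It was highest in replicate 1 in control, RANKL 4 h and RANKL 72 h, and in replicate 3 in LPS 72 h.

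**Figure D4:**
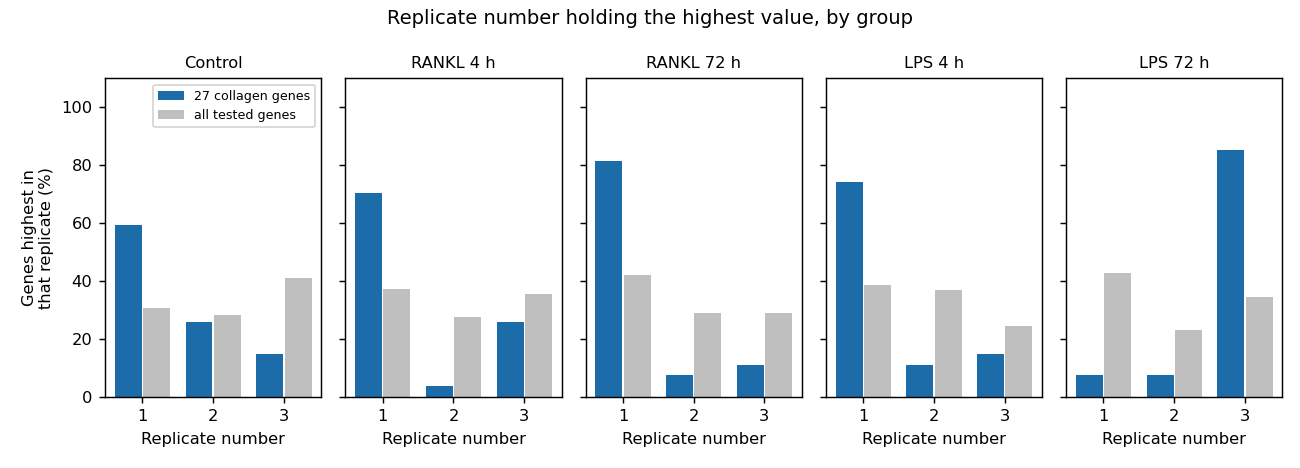
Share of genes (%) whose highest value in a group lay in replicate 1, 2 or 3, for the 27 collagen genes (blue) and all 11743 tested genes (grey), in each of the 5 groups. In 4 groups replicate 1 holds 16 to 22 of the 27 collagens, and in LPS 72 h replicate 3 holds 23.

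Within each replicate number, RANKL 72 h exceeded the control of the same number for most collagens. The median log2 difference was 2.36 in replicate 1, 1.46 in replicate 2 and 1.22 in replicate 3, and 24, 25 and 24 of the 27 were above 0, while the medians over all genes were 0.26, 0.13 and 0.09. For *Col1a1* the differences were 2.58, 2.25 and 1.54, and for *Col4a5* they were 3.04, 3.23 and 3.75. LPS 72 h gave opposite signs by number, with medians of -1.14, -0.26 and 1.06, beside 0.18, 0.09 and -0.08 over all genes. There 5, 11 and 20 of the 27 collagens were above 0, and *Col1a1* stood at -2.09, -1.49 and 1.79. The shares of all genes above 0 within a replicate number were not counted for either stimulus.

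Outside the family, the genes whose course between replicates was most like that of *Col1a1*, *Col1a2* and *Col3a1* were *Sparc*, *Fam117a*, *Srpx2*, *Fbln1*, *Ehd2*, *Ms4a3*, *Nsg1*, *Ecm1*, *Serpinh1* and *Adamts2*. Likeness was the Pearson r, over the 15 samples, between deviations from the group means of log2(FPKM + 0.1), and it ran from 0.985 for *Sparc* to 0.955 for *Adamts2*. These samples share depth and library preparation, and the values are descriptions. *Serpinh1* encodes the collagen chaperone HSP47, *Adamts2* an enzyme that trims procollagen and *Sparc* a collagen-binding protein of bone, while *Ms4a3* is a gene of granulocyte and monocyte progenitors. By the same measure *Col5a1* reached 0.98 and *Col11a1* 0.94, *Col15a1* and *Col27a1* 0.44 and 0.43, *Col14a1* 0.07, *Col18a1* -0.01 and *Col4a5* -0.52.

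The sequences before the gene starts were read for genes with the common replicate course and for *Col27a1*, which left it in LPS 4 h. RefSeq's promoter table for GRCm38.p6 holds 35 of the 44 members, 21 of them tested, with 38 starts in all. *Col3a1* and *Col5a1* are shown as members with the common replicate course and *Col27a1* as the member with the lowest adjusted p in both RANKL 72 h and LPS 4 h. Each is the 250 bases before the annotated start, 5′ to 3′, and capitals mark a CCAAT box, a TATAAA box or a GGGCGG box on either strand. *Col3a1* lies at chr1:45311288-45311537, *Col5a1* at chr2:27886175-27886424 and *Col27a1* at chr4:63215162-63215411, all on the plus strand.
Col3a1: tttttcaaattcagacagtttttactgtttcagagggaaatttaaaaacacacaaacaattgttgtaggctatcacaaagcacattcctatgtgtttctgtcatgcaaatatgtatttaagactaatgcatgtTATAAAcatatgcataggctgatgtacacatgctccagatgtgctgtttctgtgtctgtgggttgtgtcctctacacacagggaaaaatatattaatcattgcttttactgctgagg
Col5a1: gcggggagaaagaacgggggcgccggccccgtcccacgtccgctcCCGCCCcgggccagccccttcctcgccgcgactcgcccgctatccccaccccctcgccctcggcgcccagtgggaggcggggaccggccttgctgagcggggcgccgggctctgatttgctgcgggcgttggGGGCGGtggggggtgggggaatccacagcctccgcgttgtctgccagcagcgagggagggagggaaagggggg
Col27a1: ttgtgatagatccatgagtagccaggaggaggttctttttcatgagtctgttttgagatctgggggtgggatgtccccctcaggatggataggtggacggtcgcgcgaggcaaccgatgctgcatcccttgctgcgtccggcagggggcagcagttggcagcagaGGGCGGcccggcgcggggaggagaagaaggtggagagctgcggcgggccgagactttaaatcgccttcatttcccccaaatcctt

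*Col3a1* and *Col5a1* did not share these letters. *Col3a1* held TATAAA 117 bases before its start and no GGGCGG, *Col5a1* held GGGCGG 205 and 73 bases before its start and no TATAAA, and *Col27a1* held GGGCGG 85 bases before its start. On both strands and within the same 250 bases, GGGCGG, the core letters bound by Sp1, was found in 22 of the 38 member windows and in 32.7% of all 32851 windows of the table. CCAAT was found in 13 of 38 and in 33.9%, TATAAA in 5 of 38 and in 12.4%, and TGANTCA, the letters bound by AP-1, in 1 of 38, that of *Col6a1*, and in 6.75%. A match describes letters only, and no match says nothing about a factor.

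Genes that make and modify collagen were set beside the family. Of 32 tested genes for synthesis and processing, 15 were higher in RANKL 72 h and none lower, beside the background of 16.6% and 7.54%, and the median log2 fold change was 1.18. The largest changes were those of *Lox*, which cross-links collagen (3.10 ± 0.53, adjusted p = 0.000789), *Plod2*, a lysyl hydroxylase (2.54 ± 0.47, adjusted p = 0.00143), *P4ha2*, a subunit of prolyl hydroxylase (2.53 ± 0.24, adjusted p = 1.19e-05), *Pcolce*, an enhancer of procollagen cleavage (1.75 ± 0.56, adjusted p = 0.0292), and *Sparc* (1.74 ± 0.61, adjusted p = 0.043). In RANKL 4 h none passed. In LPS 4 h 1 was higher and 4 lower, where 8.43% and 39.7% of all genes were. In LPS 72 h 4 were higher and none lower, beside 13% and 14.4% of all genes. Without LPS 72 h replicate 3, 3 were higher and 2 lower, beside 18% and 15.7% of all genes. Of 11 collagen receptors, 5 were higher in RANKL 72 h, namely *Itga2* (3.49 ± 0.43, adjusted p = 8.15e-05), *Itga11* (2.12 ± 0.61, adjusted p = 0.0174), *Mrc2*, *Ddr2* and *Itgb1*, and 1 was lower, the platelet receptor *Gp6* (-2.34 ± 0.36, adjusted p = 0.000383).

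Markers of cells that make collagen moved with it in part. Of 12 stromal cell or fibroblast markers, none of them a collagen, 4 were higher in RANKL 72 h (*Postn*, *Bgn*, *Prrx1* and *Pdgfrb*) and none lower, where 16.6% and 7.54% of all genes were. *Dcn*, the fibroblast proteoglycan decorin, had 2.92, 1.43 and 0.546 FPKM in control and 0.705, 1.11 and 0.282 FPKM in RANKL 72 h. These values overlapped and did not pass (adjusted p = 0.215), while *Dcn* was lower in RANKL 72 h than in LPS 72 h (-2.60 ± 0.59, adjusted p = 0.00289). It was the only 1 of the 12 called lower in that comparison, where *Bgn*, *Fbln1* and *Mgp* were higher. Of all genes, 12.8% were lower and 23.3% higher there. In LPS 72 h *Dcn* and *Thy1* were higher than in control and *Mgp* was lower, and without LPS 72 h replicate 3 *Dcn* was higher and *Fbln1* and *Mgp* were lower. The sum of the 12 was 79.0, 55.0 and 35.9 FPKM in control replicates 1, 2 and 3 and 317, 188 and 97.9 FPKM in RANKL 72 h. It lay between 42.5 and 83.1 FPKM in RANKL 4 h and between 42.7 and 76.8 FPKM in LPS 4 h. As for the collagen sum, replicate 1 was highest in all of these groups and replicate 3 in LPS 72 h, and no stromal marker was at 0 throughout a group. Smooth muscle or pericyte markers summed to 44.6 to 78.7 FPKM in control and 65.2 to 278 FPKM in RANKL 72 h, with none of 5 passing.

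Of the 7 osteoblast markers 4 were tested, and *Sp7* was higher in RANKL 72 h (1.46 ± 0.50, adjusted p = 0.0389). None was lower, beside 16.6% and 7.54% of all genes called higher and lower. *Alpl*, *Ibsp* and *Runx2* changed by 1.57, 2.29 and -0.28 without passing (adjusted p = 0.1, 0.084 and 0.53). *Sp7* overlapped control, as RANKL 72 h replicate 3 had 0.106 FPKM beside a control range of 0.0609 to 0.1985 FPKM. Its mean was 0.529 FPKM in RANKL 4 h, without passing (adjusted p = 0.523), and 0.602 FPKM in RANKL 72 h. None of the 4 was called between these RANKL groups. *Bglap* was at 0 in all control samples. The 7 markers summed to 2.26 to 3.78 FPKM per control sample, and to 8.71, 49.7 and 2.24 FPKM in replicates 1, 2 and 3 of RANKL 72 h. Endothelial markers summed to 14.9 to 25.2 FPKM in control and 3.76 to 14.1 FPKM in RANKL 72 h, with *Kdr* lower (-1.67 ± 0.31, adjusted p = 0.0015) and none higher. The adipocyte marker *Fabp4* was lower (-2.48 ± 0.30, adjusted p = 8.12e-05). *Adipoq* and *Plin1* were at 0 in every RANKL 72 h sample, but also in every LPS 4 h sample, and *Plin1* in every control sample. They were above 0 in only 4 and 1 of the 15 samples. None of 2 tested chondrocyte markers passed in RANKL 72 h. Among the macrophage markers *Csf1r* was higher in RANKL 72 h (0.71 ± 0.14, adjusted p = 0.00208). The osteoclast markers summed to 1705, 893 and 2812 FPKM in RANKL 72 h, so that they were highest in replicate 3, where the collagen sum was lowest. The part of any of these cells in the collagen values was not tested.

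**Figure D5:**
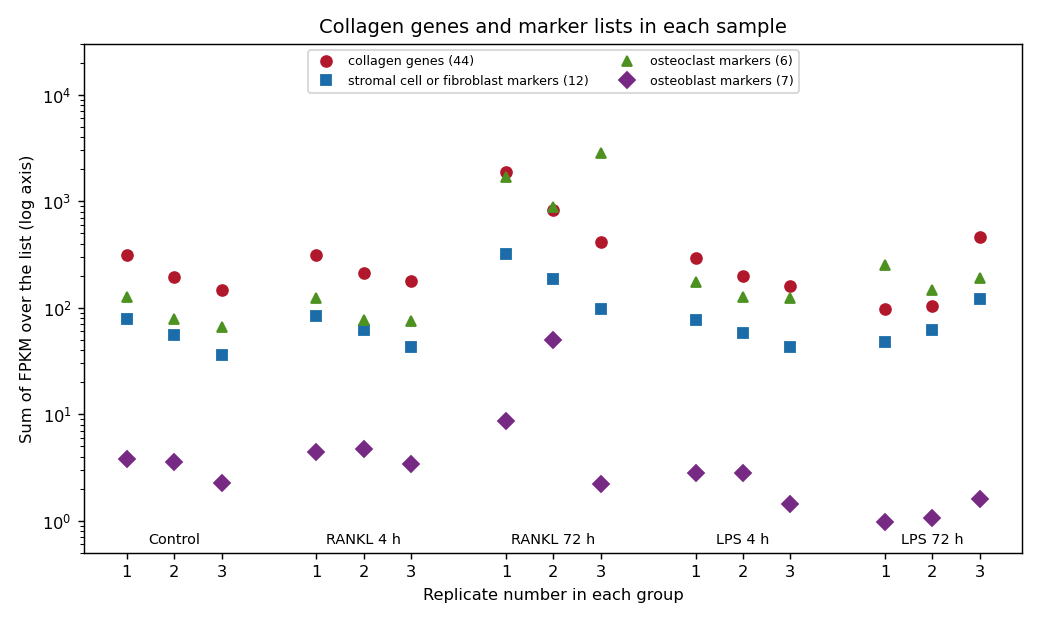
Summed FPKM (log axis) of the 44 collagen genes, 12 stromal cell or fibroblast markers, 6 osteoclast markers and 7 osteoblast markers in each sample, by group and replicate number. The collagen and stromal sums are both highest in replicate 1 outside LPS 72 h and in replicate 3 in LPS 72 h, the osteoclast sum of RANKL 72 h is highest in replicate 3, and the osteoblast sum is highest, at 49.7, in RANKL 72 h replicate 2.

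The 17 members below the limit added little RNA. *Col26a1* and *Col6a6* were listed at 0 in every sample, and the others reached at most 0.307 FPKM, the value of *Col4a6* in RANKL 72 h replicate 3. Of the 15 that were above 0 somewhere, 9 had their highest value in a RANKL 72 h library and 6 of these in replicate 2. The same shares over all genes below the limit were not counted, so these counts are description only. Some of these highest values rest on very few fragments, such as 1 for *Col4a3* and 6 for *Col25a1*. The 6 included *Col10a1*, the collagen of hypertrophic cartilage (12 of 32 fragments in that sample), *Col22a1*, found at tissue junctions (19 of 39), *Col13a1*, a transmembrane collagen (11 of 28), *Col24a1*, a fibrillar collagen of bone (20 of 76), and *Col6a4* (38 of 230). The osteoblast marker *Ibsp*, named after its values were seen, had 2.69, 43.1 and 0.963 FPKM in RANKL 72 h and was highest in that same replicate 2. With no filter on low values, *Col10a1* and *Col4a6* were called higher in RANKL 72 h, and the calls for *Col3a1*, *Col11a1*, *Col11a2* and *Col18a1* were lost. *Col4a3*, *Col4a4*, *Col6a5*, *Col8a2*, *Col9a1*, *Col9a2*, *Col17a1*, *Col25a1* and *Col28a1* made up the rest, at 0.136 FPKM or less.

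The members lie on many chromosomes. By the GENCODE M21 annotation of GRCm38, *Col1a1* spans chr11:94936224-94953042 and *Col1a2* chr6:4504814-4541544, so these chains, whose ratio was the steadiest of the 6 ratios computed, are unlinked, whereas *Col3a1* and *Col5a2* start 191744 bases apart on chromosome 1. *Col6a1* and *Col6a2* start 102538 bases apart on chromosome 10, and their ratio was between 1.32 and 1.99 in all samples, while that of *Col6a3*, which lies on chromosome 1, to *Col6a1* ran from 0.199 to 0.749. Whether strand was used in counting is not given in the sources used here, so members that overlap a gene on the opposite strand are less certain. These include *Col18a1*, which overlaps *Slc19a1* by 8825 bases, *Col15a1*, which overlaps an antisense transcript by 299 bases, and *Col12a1*, *Col14a1*, *Col4a1*, *Col4a2*, *Col5a1* and *Col9a3*.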

How the data were processed

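The authors deposited FPKM per gene and sample, made with StringTie and Ballgown according to their methods. The submitters' processing notes name GRCm38.p4 and mm10, and the aligner is not given in the sources used here. The FPKM of 14485 genes were whole multiples of a step, so fragments were recovered (100% of values within 0.01 of a whole number; 41 of 44 members). The table's last complete entry precedes *Ttk*, and later genes were not analysed here. One fit of the 5 groups used limma 3.58.1 (R 4.3.3) with a trend on log2(FPKM + 0.1) over the 11743 genes averaging 0.1 FPKM or more, and p-values were adjusted by Benjamini-Hochberg. The authors called genes in edgeR at an unadjusted p under 0.05, a threshold that was an alternative here. On values simulated for RANKL 72 h against control in 11743 genes, 73 of 100 changes of 1 and 100 of 100 of 2 on the log2 scale were called, and 14 of 11543 unchanged genes. The changed genes were drawn with the most variable genes left out. The collagens varied between replicates more than most genes, so these shares do not carry over to them. Fragments are not independent molecules, so counting error is a lower limit.

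Replicate numbers come from the titles of the samples. Deviations from group means of equally numbered samples were correlated over 9486 genes. Against control, r was 0.707 to 0.842 for RANKL 4 h, 0.44 to 0.624 for LPS 4 h, 0.136 to 0.318 for RANKL 72 h and -0.03 to 0.184 for LPS 72 h. For RANKL 72 h it was 0.162 to 0.251 against RANKL 4 h and -0.229 to -0.021 against LPS 72 h. Unequally numbered samples were not compared, so whether equal numbers mark paired samples is not known. The printed fit has no replicate term, and the fit with replicate number as a block was an alternative. Classes, synthesis, receptor and cell marker lists are textbook lists. Members and lists were chosen with earlier results of these data known. Named list genes are the 5 largest calls in RANKL 72 h, and genes behind counts of 5 or fewer. Tables and figures used Python 3.11.15, numpy 2.4.6, pandas 2.3.3 and matplotlib 3.10.9.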

Additional observations from a re-analysis of the deposited data

Results flagged for a closer look

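By limma, the difference from control, here called the effect, differed between 72 h and 4 h of RANKL for 16 collagens. The length of stimulation and the time in culture cannot be told apart in that test. The control samples cancel between these effects, so the calls are the same 15 higher and 1 lower as for RANKL 72 h against RANKL 4 h above. Of all tested genes, 16.4% were higher and 6.83% lower there. On the log2 scale the effect at 72 h minus that at 4 h was 3.24 for *Col2a1*, 3.06 for *Col4a5*, 2.73 for *Col27a1*, 2.24 for *Col3a1*, 2.21 for *Col12a1*, 2.08 for *Col16a1*, 2.08 for *Col1a2*, 2.03 for *Col15a1*, 1.98 for *Col1a1*, 1.95 for *Col11a1*, 1.91 for *Col6a3*, 1.83 for *Col5a1*, 1.71 for *Col8a1*, 1.67 for *Col14a1* and 1.54 for *Col5a2*. It was -0.76 for *Col11a2*. No library was tested as an outlier within its group, since the groups hold 3 samples.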

How the results depend on the processing

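Counts of collagens called held within 1.5 times under most settings, and no single collagen that was called changed direction under any alternative. Against control, RANKL 72 h had 11 calls at a mean of at least 1 FPKM, where fewer members are tested, and 11 (10 higher, 1 lower) after centring on the median gene. Leaving out 1 library or replicate number gave 4 to 19 calls, with 4 without replicate 2 and 8 without replicate 1 of every group. LPS 4 h had 4 calls, 1 at a pseudocount of 1, 0 at a mean of at least 1 FPKM and 1 to 4 with samples left out. LPS 72 h had 3 calls, 7 at an unadjusted p under 0.05 (3 higher, 4 lower), and 0 to 8 with samples left out. The balance of its calls reversed to rises alone without control replicate 1 (1 call), without LPS 72 h replicate 1 (1 call) and without replicate 1 of every group (4 calls). RANKL 72 h against LPS 72 h had 9 to 20 calls with samples left out. RANKL 72 h against RANKL 4 h had 10 calls at a mean of at least 1 FPKM, 10 after centring and 3 to 20 with samples left out. RANKL 4 h had 0 calls under every alternative. Where no reason is given the cause was not tested. With the replicate number as a block, RANKL 72 h had 20 calls (gaining *Col4a2*, *Col5a3* and *Col6a2*), LPS 4 h 4, LPS 72 h 4 (gaining *Col18a1*), RANKL 72 h against LPS 72 h 18 and RANKL 72 h against RANKL 4 h 17 (gaining *Col18a1*); the block lost no call. For LPS 72 h the block rests on the number alone, as not every correlation of equally numbered samples exceeded 0.1. For the other groups pairing was not established either. Gene lists and the unadjusted rule in LPS 72 h were also counted without LPS 72 h replicate 3, a choice made after seeing the data: synthesis genes went from 4 to 5 calls, chondrocyte markers from 1 to 0, collagens at an unadjusted p from 7 to 8 and LPS response markers stayed at 3. The stromal markers had 3 calls either way, but the balance reversed from 2 higher and 1 lower to 1 higher and 2 lower.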
